A study of Mus musculus with 6 samples.

Results

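The FGF-ERK feedback genes are 8 genes chosen by symbol for their place in the pathway: the ligand gene Fgf4, the receptor genes Fgfr1 and Fgfr2, the inhibitor genes Dusp6, Spry2 and Spry4, and the transcription factor genes Etv4 and Etv5. They were matched to Ensembl identifiers among the 50686 genes of the count files, and all 8 were among the 16729 genes that passed the filter on low counts. Of the 8 genes, Fgfr1 rose and Spry4 fell with intermittent compressive force (ICF), each by a small amount, whereas 6 did not pass the test. Compared within the donor pairs that the labels give, Dusp6, Spry2 and Fgf4 fell as well, Fgf4 only just (edgeR adjusted p = 0.0485). Of all genes tested, 7.85% passed in the first comparison and 29.9% within pairs. Fgfr1 went from 91.0 ± 2.70 to 108 ± 2.23 CPM and Spry4 from 117 ± 7.03 to 94.9 ± 6.97 CPM (SD, n = 3). CPM is the read count scaled to a common library total, here by TMM, a correction for differences in library composition.

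The cells were iPSCs made from mouse gingival fibroblasts and first grown on SNL feeder cells, a mouse fibroblast line that was trypsinized away before embryoid bodies were formed. All samples shared retinoic acid at 1 μmol per litre for 2 days, which guides the embryoid bodies toward immature mesenchymal cells. The bodies were then attached to gelatin and kept in the same medium for a further day. Serum-free medium was used during the experiment. ICF samples (n = 3) were loaded with 1.5 g per square centimetre at 0.23 Hz for 24 h, and Control samples (n = 3) stayed unloaded. The labels name donors 1 to 3 in each group, called replicates here, and the methods speak of independent experiments. No strain, sex or genotype is given in the sources used here.

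Fibroblast growth factors bind receptor tyrosine kinases and, through RAS, RAF and MEK, activate the kinase ERK. ERK raises the transcription of ETS factors such as Etv4 and Etv5 and of its own inhibitors, so that the mRNA of these genes is widely used as a readout of the pathway. In mouse pluripotent cells Fgf4 is the main FGF made by the cells themselves, and Fgfr1 and Fgfr2 receive it.

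Promoter sequences are shown for 3 of the genes that were lower with ICF once samples were compared within donors (Dusp6, Fgf4 and Spry2), because ETS factors act on such sequences. They are from RefSeq (GRCm38.p6) and cover the 250 bases before the start site, read 5′ to 3′ on the strand of the gene, with each match to the ETS core GGAA on either strand (TTCC on the reverse) in capitals. Dusp6 is at chr10:99262981-99263230 on the forward strand, Fgf4 at chr7:144861136-144861385 on the forward strand and Spry2 at chr14:105896820-105897069 on the reverse strand. The RefSeq start of Fgf4 lies inside the longer span that GENCODE gives the gene. Spry4, which was lower in that comparison too and had the largest fall, is not shown.
Dusp6: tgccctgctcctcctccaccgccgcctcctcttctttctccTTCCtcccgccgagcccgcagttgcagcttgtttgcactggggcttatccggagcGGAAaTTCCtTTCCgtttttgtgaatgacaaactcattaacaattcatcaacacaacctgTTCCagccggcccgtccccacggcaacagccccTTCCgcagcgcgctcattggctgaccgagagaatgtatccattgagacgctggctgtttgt
Fgf4: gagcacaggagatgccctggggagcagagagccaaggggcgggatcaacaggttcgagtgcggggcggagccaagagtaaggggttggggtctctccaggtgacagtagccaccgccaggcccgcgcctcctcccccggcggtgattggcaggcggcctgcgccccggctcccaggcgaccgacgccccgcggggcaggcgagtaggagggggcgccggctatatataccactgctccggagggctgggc
Spry2: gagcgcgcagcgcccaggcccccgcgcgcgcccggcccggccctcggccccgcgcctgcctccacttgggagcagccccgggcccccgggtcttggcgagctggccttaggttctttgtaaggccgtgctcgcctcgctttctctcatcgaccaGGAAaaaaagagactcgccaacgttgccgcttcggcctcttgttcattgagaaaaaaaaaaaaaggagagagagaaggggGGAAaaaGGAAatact

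The core matched 6 times in Dusp6, 3 times in Spry2 and 0 times in Fgf4. Of 32851 RefSeq promoter windows of this length, 93.4% held at least 1 match, with a median of 3 matches, so that the core is common and a match is a description only. The longer form CCGGAA was in 0 of these 3 windows and in 12% of all windows.

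Between 28711166 and 34194413 reads were counted on genes per sample, and each of the 8 genes had 1240 to 8568 counts in every sample, for which counting alone gives an error of 1.08% to 2.84%. For the third ICF library, 89% of nonzero counts could be divided by 4, where the other 5 libraries had 20.3% to 21.5%, and this holds for 7 of the 8 genes, all except Spry2. Were the counts of that library 4 times the reads behind them, its counting error for the 8 genes would be 2.36% to 5.51%. Replicate 3 also stood apart within its group. The median chi-square per gene was 2.67 to 4.85 for pairs that held replicate 3, against 0.963 between Control replicates 1 and 2 and 1.04 between ICF replicates 1 and 2. Results are therefore given with and without these samples where that matters.

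Markers of the cell types that such cultures can hold were read next. Pou5f1, a core pluripotency factor, was at 841 ± 57.2 CPM in the Control and 817 ± 70.4 with ICF (SD, n = 3), and all 10 pluripotency markers passed the filter. Dppa5a, the next of them by count, was at 669 ± 58.0 CPM and 546 ± 58.9 (SD, n = 3). The summed level of these markers was 4656, 4601 and 3846 CPM in Control replicates 1 to 3 and 3869, 3928 and 3479 CPM with ICF. The groups overlapped, but each ICF sum was below the Control sum of the same number. The median log2 fold change of the 10 was -0.13. Of the 10, Tdgf1, which encodes a Nodal co-receptor, was called, falling from 722 ± 88.9 to 411 ± 36.5 CPM (SD, n = 3; log2 fold change -0.81, edgeR adjusted p = 0.00283). The called markers that follow, like Tdgf1, are named after their values were seen, except Col3a1. Markers of immature mesenchymal cells summed to 366.5 to 411 CPM in the Control and 415.8 to 429.6 with ICF, without overlap, led by Pdgfra at 178 ± 6.45 and 182 ± 0.0559 and Vim at 163 ± 15.8 and 180 ± 6.82 CPM (SD, n = 3). Col1a1 and Twist2 were called among them, with log2 fold changes of 0.75 and 0.85 (edgeR adjusted p = 0.0216 and 0.0471). Leaving out 1 sample kept the call in 3 of 6 cases for Col1a1 and in 0 of 6 for Twist2. Col1a1 lost it without Control replicate 1, ICF replicate 1 or ICF replicate 2. The median log2 fold change of the 10 mesenchymal markers was 0.13. Snai2 (-0.17) and Meox1 (-0.18), named after their values were seen, were below 0 and the others above. Markers of extraembryonic endoderm summed to 4814 to 5203 CPM and 4105 to 4611 CPM, also without overlap, most of it from the basement membrane genes Col4a1 (2219 ± 174 and 1821 ± 205) and Lama1 (1758 ± 139 and 1430 ± 174; SD, n = 3). The median log2 fold change of the 8 was 0.0056, with Dab2 at 0.25, Gata6 at 0.19, Foxa2 at 0.10 and Gata4 at 0.03, and the only one called was Sox17 (-0.34, edgeR adjusted p = 0.0445), whose call held in 1 of 6 cases, without ICF replicate 2. Fibroblast markers, which feeder cells would carry, were low at 28.7 to 50.5 CPM and 45.0 to 65.3 CPM in sum, led by Col1a2 (15.1 ± 7.32 and 22.9 ± 10.48) and Col3a1 (9.64 ± 2.16 and 16.0 ± 3.02; SD, n = 3), with 2 of the 8 under the filter. Col3a1 was called (log2 fold change 0.73, edgeR adjusted p = 0.0482), and the call was lost whichever sample was left out. Neural markers summed to 129.3 to 138.9 CPM and 124.6 to 136.5 CPM, with 2 of the 8 under the filter. They were led by Tubb3 (75.8 ± 4.28 and 64.8 ± 5.11) and Sox1 (24.9 ± 0.511 and 25.4 ± 0.600; SD, n = 3). The 6 tested had a median log2 fold change of 0.0028 and moved both ways. Nes and Map2 were at 0.49 and 0.35, and Tubb3 and Sox3 at -0.23 and -0.24, and none was called. The part of these shifts in the results below was not tested, and in bulk RNA fewer cells of a type cannot be told apart from less RNA per cell.

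To ask whether loading moved the pathway's readout genes, ICF was compared with Control by edgeR's quasi-likelihood test across all genes, p-values adjusted by Benjamini-Hochberg and called under 0.05. At this threshold 7.85% of all genes tested were called, 3.47% as higher and 4.38% as lower with ICF. Among the 8 genes 1 was called higher and 1 lower, and the median log2 fold change was -0.12, against 0.0026 over all genes tested. The fitted value was above 0 for Fgfr1 and below 0 for the other 7. The groups did not overlap in 5 of the 8 genes, against 31.4% of all genes tested.

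**Figure D1:**
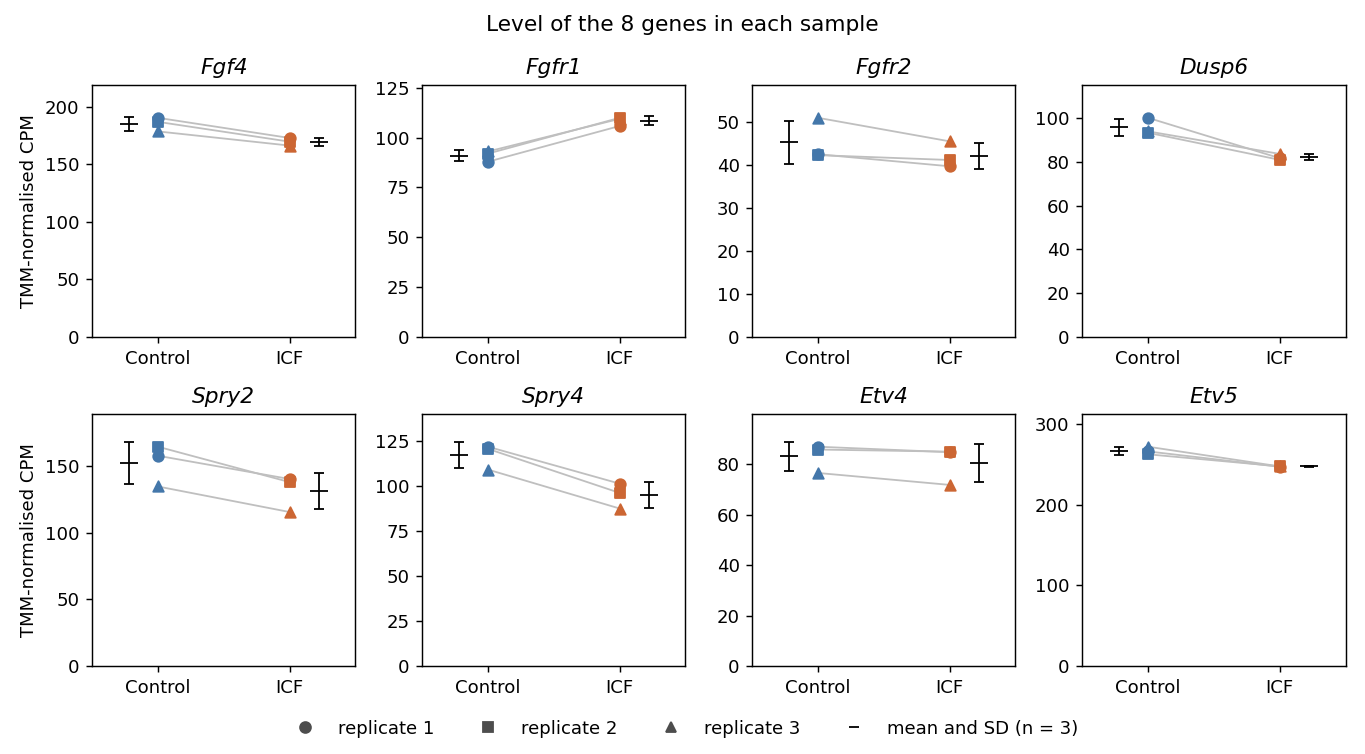
Level of each of the 8 genes (vertical axis, TMM-normalised CPM, starting at 0) in 3 Control and 3 ICF samples; symbols mark the replicate number, grey lines join samples of the same number, and black bars are mean and SD. Fgfr1 is the gene whose ICF samples all lie above its Control samples, while in Spry4, Dusp6, Fgf4 and Etv5 all ICF samples lie below.

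Because the labels assign the same donor numbers to both groups, the comparison was repeated with the donor as a replicate block, which compares samples within a pair. With the replicate block 5 of the 8 genes were called, Fgfr1 as higher and Spry4, Dusp6, Spry2 and Fgf4 as lower, where 29.9% of all genes tested were called. DESeq2 without the block called 3 of the 8 (Fgfr1, Spry4 and Dusp6) and 13.2% of all genes to which it gave an adjusted p. Within pairs, 7 of the 8 genes were lower with ICF in all 3 pairs and 1 was higher in all 3. Over all genes tested 28.3% were lower in all 3 pairs and 28.3% were higher in all 3.

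Fgf4 encodes the ligand (GRCm38 chromosome 7, forward strand, 144847367 to 144865243). Its level was 190.2, 187 and 178 CPM in Control replicates 1 to 3 and 173, 169.5 and 166 CPM in the ICF replicates. Every ICF sample was thus below every Control sample. The log2 fold change was -0.13 (standard error of the difference, SE, 0.03, edgeR adjusted p = 0.188), which did not pass, and the replicate block gave an adjusted p of 0.0485. The 3 pairs differed by -0.14, -0.14 and -0.10 on the log2 scale.

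Of the receptor genes Fgfr1 rose and Fgfr2 did not pass the test. Fgfr1, on chromosome 8 from 25513654 to 25575718, encodes the receptor found throughout the epiblast and in mesenchyme. It was at 87.9, 92.0 and 93.0 CPM in the Control replicates and at 106, 109.9 and 109 CPM with ICF. No samples overlapped, and the SD was 2.97% of the mean in the Control and 2.06% with ICF. ICF raised it by a log2 fold change of 0.25 (SE 0.03, 1.19-fold, edgeR adjusted p = 0.0314), and the 3 pairs differed by 0.27, 0.26 and 0.23. The replicate block gave an adjusted p of 0.000291. Leaving out 1 sample kept the log2 fold change between 0.23 and 0.27, but the test then passed in 2 of 6 cases, failing without Control replicate 1 (adjusted p = 0.145), Control replicate 2 (0.136), ICF replicate 1 (0.0929) or ICF replicate 2 (0.0927). Opposite to Fgfr1 the annotation has the antisense gene Gm16159, which shares 1.85% of the 75-base stretches of the longest Fgfr1 transcript.

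Fgfr2, on the reverse strand of chromosome 7 from 130162451 to 133123350 in this annotation, encodes the receptor that is prominent in primitive endoderm. Its level was 42.4, 42.2 and 50.9 CPM in the Control, against 39.6, 41.1 and 45.4 CPM with ICF. The groups overlapped, with replicate 3 highest in both. The log2 fold change was -0.10 (SE 0.11, edgeR adjusted p = 0.533), and the replicate block gave an adjusted p of 0.242. In this annotation its exons overlap those of Ctbp2 on the same strand, and how reads in the overlap were counted is not given in the sources used here. Per kilobase of exon, Fgfr1 was 2.12 ± 0.188 times Fgfr2 in the Control and 2.70 ± 0.160 times with ICF (SD, n = 3). The ratio was 2.17, 2.28 and 1.91 in the Control replicates and 2.79, 2.80 and 2.52 with ICF. All 3 ICF ratios lay above all Control ratios (p = 0.1 in an exact permutation test, two-sided, which is the lowest value 3 samples against 3 can reach).

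Dusp6 encodes a cytoplasmic phosphatase that dephosphorylates ERK and lies on chromosome 10 from 99263231 to 99267489. It was at 100, 93.2 and 93.8 CPM in the Control, against 81.6, 80.8 and 83.5 CPM with ICF. All ICF samples were below all Control samples, and the spread among ICF samples was 1.70% of their mean. Its fitted difference was -0.22 on the log2 scale (SE 0.04, 0.857-fold), and its adjusted p of 0.0522 in the edgeR test lay just above the threshold. It was below the threshold with the replicate block (0.00156), with DESeq2 (0.018), with a stricter filter on low counts (0.0466) and with the counts of ICF replicate 3 divided by 4 (0.0458). It stayed above the threshold with RLE factors in place of TMM (0.0519) and with a looser filter (0.0861). With 1 sample left out Dusp6 passed in 0 of 6 fits, with edgeR adjusted p from 0.0544 to 0.204.

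The Sprouty genes encode inhibitors that act between the receptor and RAF. Spry2, on chromosome 14 from 105891947 to 105896819, was at 158, 165 and 135 CPM in the Control, against 140.5, 138 and 116 CPM with ICF. Replicate 3 was lowest in both groups, and ICF replicates 1 and 2 were above Control replicate 3, so that the groups overlapped. The log2 fold change was -0.21 (SE 0.13, edgeR adjusted p = 0.211). Within pairs the differences were -0.17, -0.25 and -0.22, with an SD of 0.04, and the replicate block gave an adjusted p of 0.00123.

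Spry4 was the gene of the 8 with the largest fitted fall. It was at 122, 120.5 and 109 CPM in the Control, against 101, 96.1 and 87.4 CPM with ICF, with no overlap between the groups. ICF lowered it by a log2 fold change of -0.30 (SE 0.08, 0.811-fold, edgeR adjusted p = 0.0444). The 3 pairs differed by -0.27, -0.33 and -0.32, and the replicate block gave an adjusted p of 2.37e-05. With any 1 sample removed the estimate ranged from -0.35 to -0.24, past the threshold in 1 of 6 fits. Without ICF replicate 3 the adjusted p was 0.068, without ICF replicates 1 and 2 it was 0.0829 and 0.106, and without Control replicates 1 and 2 it was 0.173 and 0.186. With replicates 1 and 2 of both groups alone the log2 fold change was -0.30 (adjusted p = 0.000225, edgeR).

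Etv4 and Etv5 encode related ETS transcription factors. Etv4, on chromosome 11 from 101769742 to 101785371, was at 86.9, 85.8 and 76.5 CPM in the Control, against 84.8, 85.0 and 71.8 CPM with ICF. The groups overlapped, and replicate 3 was lowest in both. Its fitted log2 difference was -0.05 (SE 0.10, edgeR adjusted p = 0.78), and it turned to 0.04 without ICF replicate 3. Etv5, on chromosome 16 from 22381309 to 22439719, was at 266, 262 and 272 CPM in the Control, against 246.7, 247.3 and 247.2 CPM with ICF. All ICF samples were lower, by a log2 fold change of -0.11 (SE 0.01), but neither the edgeR test (adjusted p = 0.226) nor the replicate block (0.0886) called it. Of the 75-base stretches in the longest Etv5 transcript, 20.8% also occur in Gm4798, and reads that align to several places were not assigned to genes, so the Etv5 level is uncertain.

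**Figure D2:**
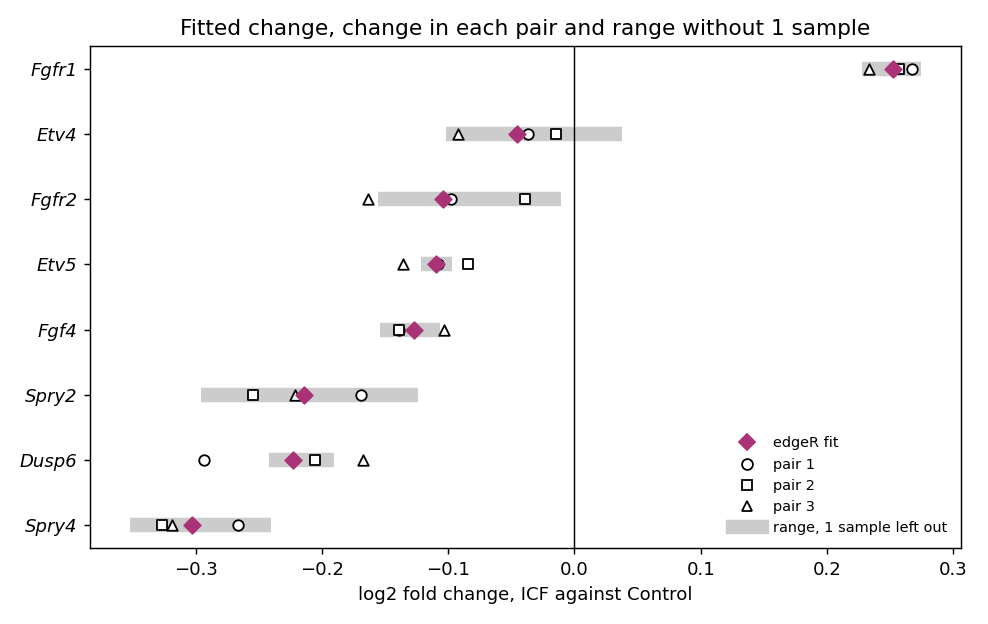
Log2 fold change of each gene between ICF and Control (horizontal axis); diamonds are the edgeR fit, open symbols the difference in each of the 3 same-numbered pairs and grey bars the range of the fit when 1 of the 6 samples was left out. Fgfr1 lies to the right of 0 and Spry4, Dusp6, Spry2, Fgf4, Etv5 and Fgfr2 to the left throughout, while the grey bar of Etv4 crosses 0.

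Levels between genes were compared per length, as CPM per kilobase of merged exons (RPKM). In the Control the order was Spry2 (73.1 ± 7.50), Etv5 (65.0 ± 1.149), Fgf4 (57.9 ± 1.90), Dusp6 (30.5 ± 1.202), Etv4 (26.8 ± 1.84), Spry4 (24.6 ± 1.48), Fgfr1 (9.21 ± 0.274) and Fgfr2 (4.38 ± 0.479; SD, n = 3). The same order held with ICF, from Spry2 at 63.0 ± 6.56 to Fgfr2 at 4.07 ± 0.291 RPKM. Spry2 and Etv5 were neighbours whose samples overlapped in both groups, and so were Etv4 and Spry4 in the Control and Dusp6 and Etv4 with ICF. By merged exons both receptor genes were below the other 6. Spry2 was at percentile 95.6 of all genes tested by RPKM, Etv5 at 95.0 and Fgf4 at 94.1, whereas Fgfr1 was at 67.9 and Fgfr2 at 49.8. Divided by the longest transcript in place of merged exons, Etv4 moved ahead of Dusp6 in both groups and Fgfr1 ahead of Spry4 with ICF.

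**Figure D3:**
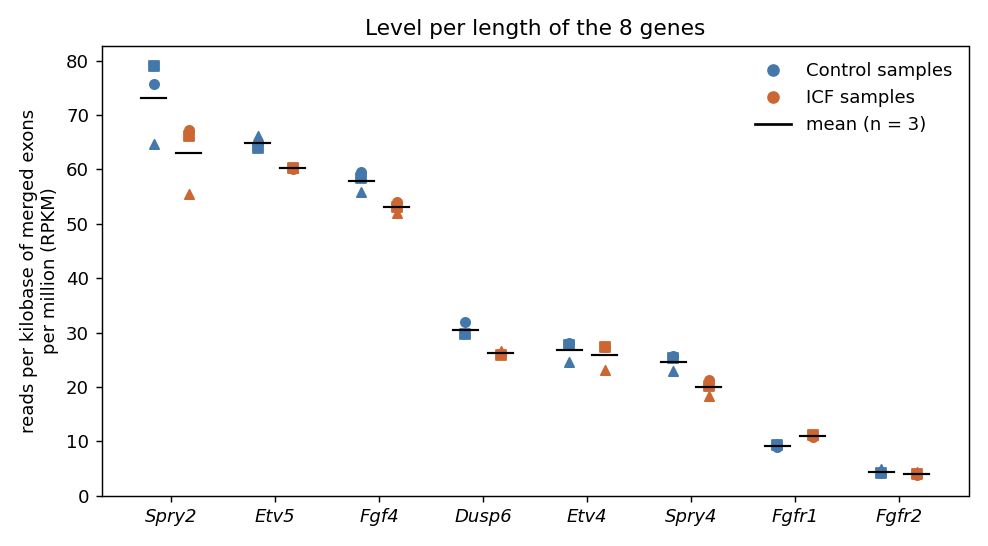
Level per length of the 8 genes (vertical axis, RPKM over merged exons, starting at 0) in each Control (blue) and ICF (orange) sample, ordered by the Control mean; black lines are group means. Samples of Spry2, Etv5 and Fgf4 sit between 52.0 and 79.0 RPKM and those of Fgfr1 and Fgfr2 between 3.84 and 11.1.

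Ratios between the feedback genes were compared in the same way. Per length, Spry4 was 0.338 ± 0.0168 of Spry2 in the Control and 0.318 ± 0.0132 with ICF (SD, n = 3; exact two-sided permutation test, p = 0.2). Spry2 was 2.39 ± 0.249 times Dusp6 in the Control and 2.41 ± 0.286 times with ICF (SD, n = 3; exact permutation test, p = 1). Etv5 relative to Dusp6 was 2.03, 2.15 and 2.21 in the Control, against 2.31, 2.33 and 2.26 with ICF, which did not overlap (exact permutation test, p = 0.1). Averaged over Dusp6, Spry2, Spry4, Etv4 and Etv5 and centred on the 6 samples, the log2 level was 0.14, 0.12 and 0.01 in the Control, against -0.04, -0.06 and -0.18 with ICF. Replicate 3 was lowest in both groups, and its Control value was the nearest to the ICF samples.

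The other genes of the pathway were taken by role from lists of 97 genes. Of 21 other FGF ligands 15 passed the filter and 0 were called by edgeR, with a median log2 fold change of -0.02. Without adjustment, 6 of the 15 (40%) had an edgeR p under 0.05, against 25.6% of all genes tested. Fgf10, a ligand of mesenchyme, had the highest mean count and was at 46.4 ± 0.746 CPM in the Control and 47.6 ± 3.57 with ICF (SD, n = 3). With the replicate block Fgf5, Fgf2 and Fgf13 were called higher and Fgf21 lower, which are named here after their values were seen. These 4 of 15 are 26.7%, against 29.9% of all genes tested in that fit. Fgf2 had 11, 9 and 10 counts in the Control and 23, 13 and 44 with ICF, and its log2 fold change was 1.23 with the block (edgeR adjusted p = 0.018) and 0.68 (0.232) without the block in replicates 1 and 2 of both groups alone. Fgf5, a marker of primed epiblast, went from 8.54 ± 2.36 to 13.1 ± 3.42 CPM (SD, n = 3), and its groups overlapped. The mean levels of Fgf2 and Fgf21 were under 1 CPM in both groups.

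Among the other receptors, klothos and heparan sulphate genes, 14 of 15 passed the filter, 2 were called higher and 2 lower (28.6%, against 7.85% of all genes tested). Fgfr4, a further FGF receptor, fell from 15.1 ± 0.304 to 10.7 ± 1.26 CPM (SD, n = 3). The fitted log2 difference was -0.50 (edgeR adjusted p = 0.0291). The heparan sulphate carriers, which help ligand and receptor bind, moved both ways. Gpc3 fell from 162 ± 12.2 to 120.1 ± 1.78 CPM, whereas its relative Gpc4 rose from 50.0 ± 3.07 to 71.1 ± 4.23 CPM and Sdc4 from 151 ± 4.39 to 218 ± 35.8 CPM (SD, n = 3). Their log2 fold changes were -0.43, 0.51 and 0.53 (adjusted p = 0.00752, 0.00579 and 0.0194, edgeR). Leaving out 1 sample, Gpc4 stayed past the threshold in 6 of 6 cases, Gpc3 in 5 (not without Control replicate 2), Sdc4 in 4 (not without Control replicate 1 or 2) and Fgfr4 in 2 (only without Control replicate 3 or ICF replicate 3), with adjusted p up to 0.0338, 0.052, 0.0922 and 0.131. With the replicate block 4 were higher and 4 lower (57.1%, against 29.9% of all genes tested), adding Sdc1, Hs2st1, Fgfr3 and Fgfrl1, which are named after their values were seen. In that fit Fgfr3, Fgfr4 and Fgfrl1 had log2 fold changes of -0.35, -0.50 and -0.36, while Fgfr1 had 0.25.

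In the RAS-ERK cascade 22 of 22 genes were tested and 1 was called (4.55%, against 7.85% of all genes tested). Map2k1, which encodes a MEK kinase, fell from 198 ± 7.73 to 149 ± 9.17 CPM (SD, n = 3). The fitted log2 difference was -0.41 (edgeR adjusted p = 0.00846), and the call was lost without Control replicate 2 or ICF replicate 1 (adjusted p up to 0.0612). The median of the list was 0.02. With the replicate block Gab1, Hras and Nras were called higher and Rps6ka2, Map2k1, Mapk3 and Shc1 lower, of which all but Map2k1 are named after their values were seen. These 7 of 22 are 31.8%, near the 29.9% of all genes tested in that fit. Mapk3, which encodes an ERK kinase, went from 131 ± 14.0 to 109 ± 8.86 CPM (SD, n = 3).

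Of 19 other feedback inhibitors 1 was called (5.26%), and their median log2 fold change was 0.0009. Dusp1, a nuclear MAP kinase phosphatase, fell from 32.2 ± 3.12 to 19.9 ± 0.687 CPM (SD, n = 3). The fitted log2 difference was -0.70 (edgeR adjusted p = 0.00333). With the replicate block Nf1 and Rasa3, which encode RAS-inactivating proteins, were higher, and Dusp1, Spry1, Dusp5 and Cblb lower, named after their values were seen except Dusp1. These 6 of 19 are 31.6%, again near the 29.9% of all genes tested. Spry1 and Spry3 are the Sprouty genes of this list. Spry1 went from 22.8 ± 3.04 to 17.3 ± 2.41 CPM (SD, n = 3). Its fitted log2 difference was -0.40 (edgeR adjusted p = 0.0998, and 0.000163 with the replicate block). That of Spry3 was -0.15 (edgeR adjusted p = 0.672, and 0.594 with the replicate block).

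Among 20 other ERK targets 2 were called higher and 3 lower (25%, against 7.85% of all genes tested), with a median log2 fold change of 0.04. Ccnd1, which encodes cyclin D1, and Lif, a cytokine that sustains naive pluripotency, rose by log2 fold changes of 0.33 and 0.61 (adjusted p = 0.0163 and 0.0124, edgeR). Both calls were lost without Control replicate 1, Control replicate 2 or ICF replicate 1, with adjusted p up to 0.0803 and 0.0726. Lif went from 8.93 ± 0.616 to 13.6 ± 0.999 CPM (SD, n = 3). Whether its reads came from the iPSCs or from leftover feeder cells was not tested. Ier3 fell from 41.0 ± 9.39 to 12.2 ± 0.574 CPM and Bhlhe40 from 62.7 ± 19.3 to 20.5 ± 1.198 CPM (SD, n = 3), with fitted log2 differences of -1.75 and -1.61 (adjusted p = 0.000812 and 0.00323, edgeR). Bhlhe40 encodes a transcriptional repressor that is also linked to hypoxia. The paper lists the HIF-1 signaling pathway, a hypoxia pathway, for its downregulated genes. Whether the falls of Ier3 and Bhlhe40 came through ERK was not tested. Plaur, the urokinase receptor gene, fell from 39.3 ± 0.178 to 30.8 ± 3.08 CPM (SD, n = 3; log2 fold change -0.35, adjusted p = 0.0391, edgeR), a call that held in 1 of 6 cases, without ICF replicate 3, with adjusted p up to 0.148 in the others. The calls of Dusp1, Ier3 and Bhlhe40 held in 6 of 6. Egr1 and Fos, immediate early genes that ERK induces, were at 18.9 ± 0.610 and 20.4 ± 1.44 CPM and at 4.46 ± 0.193 and 4.55 ± 0.368 CPM (SD, n = 3), and neither, also named after the values were seen, was called.

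**Figure D4:**
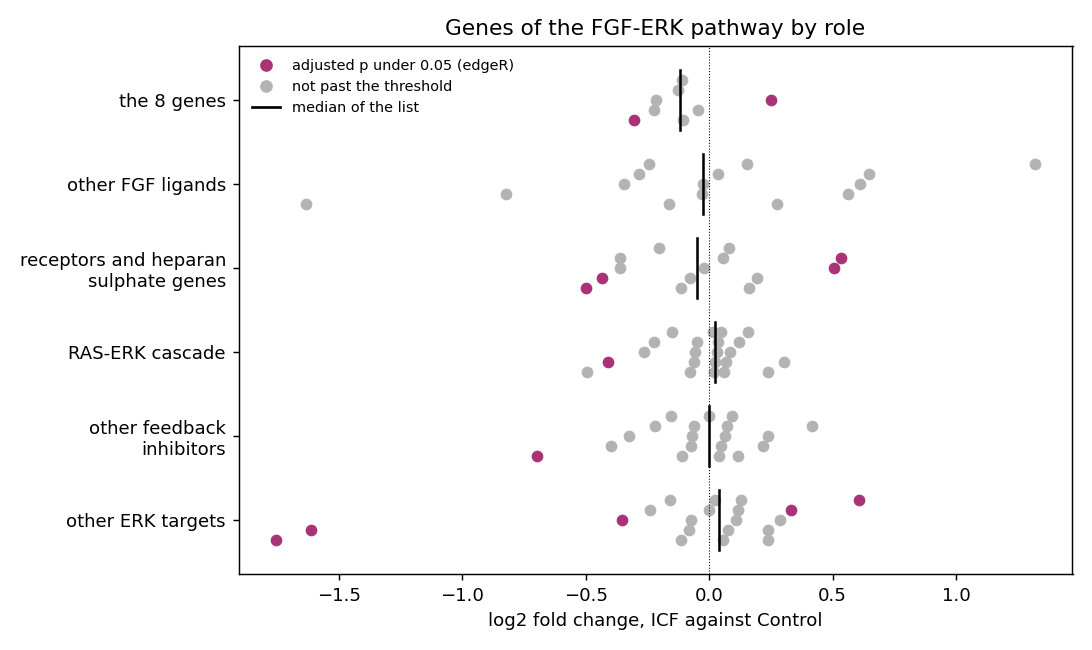
Log2 fold change between ICF and Control (horizontal axis) of the genes tested in each list, 1 point per gene; filled purple points passed the edgeR threshold of 0.05, grey points did not, and black lines are list medians. Each list has points on both sides of 0, and the 8 genes have the lowest median of the lists drawn, -0.12. The pluripotency markers, which are not drawn, had a median of -0.13.

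The genes most like Spry4, Fgfr1 and Dusp6 over the 6 samples were sought among 11917 other genes whose mean count was at least 100, by the root mean square difference of log2 CPM centred on the mean of each gene. For Spry4 these were Cnn3 and Add3, with differences of 0.015 and 0.023 on the log2 scale. For Fgfr1 they were Natd1 and Plxna1, at 0.019 each, and for Dusp6 Fopnl and Glo1, at 0.019 and 0.021. The levels of Cnn3 and Add3 were 332 ± 21.4 and 109 ± 6.45 CPM in the Control and 273 ± 21.2 and 87.9 ± 8.18 with ICF (SD, n = 3). Plxna1 was at 159 ± 4.49 and 186 ± 2.43 CPM (SD, n = 3).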

How the data were processed

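Strand-specific mRNA libraries from 3 Control and 3 ICF samples were sequenced as single reads of 75 cycles. The authors used Trimmomatic for quality filtering, HISAT2 for alignment and HTSeq for counting. The deposited values are raw counts per Ensembl gene. The submitters' processing notes name bcl2fastq 2.19 and the builds GRCm38 and hg38, and the identifiers are those of mouse. Rows that name no gene held 38.1% to 40.3% of the reads, mostly reads aligned to several places, and were left out.

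Genes were named from GENCODE M21 (GRCm38), which held 50462 of 50686 identifiers. edgeR 4.0.16 in R 4.3.3 was used (glmQLFit, glmQLFTest, TMM, filterByExpr). Standard errors come from the SDs of log2 CPM. Alternatives were DESeq2 1.42.0, RLE factors, 2 filters, the donor as a replicate block, division of 1 library by 4 and leaving out each sample. Same-numbered samples share a donor in the labels, and across genes the correlation of their deviations from group means was 0.128, 0.174 and 0.319 for numbers 1 to 3. Counting errors cover counting only. The test was also run on simulated counts. The changes planted there were larger than those of the 8 genes, so that run does not show how often changes of their size are found.

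The 8 genes, the lists and the rule for named genes were chosen with earlier results of these data known. The rule names the 8 genes; the called genes of each pathway list (or, where none was called, that with the highest mean count); the 2 most abundant markers of each cell type; and the 2 genes most like each of the 3 most changed of the 8.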

Additional observations from a re-analysis of the deposited data

How the results depend on the processing

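Samples numbered alike were few, 3 pairs. P-values without the replicate block rest on the spread among samples of the same group. Those with it rest on how much the difference between ICF and Control varies from pair to pair. Control replicate 1 deviated more like ICF replicate 2 (r = 0.229) than like ICF replicate 1 (0.128), so the pairing rests on the labels. Past the threshold, against 1 of the 8 genes lower with ICF as reported, 2 were lower with DESeq2, with at least 10 counts in every sample and with ICF replicate 3 divided by 4, 3 with DESeq2 and the replicate block, and 4 with edgeR and the replicate block. Dusp6 passed in each, with log2 fold changes of -0.23, -0.22, -0.23, -0.23 and -0.22, Spry2 with both forms of the replicate block (-0.22 and -0.21) and Fgf4 with edgeR and the replicate block (-0.13). With replicates 1 and 2 of both groups alone, an alternative chosen after seeing the data, 4 were lower, with Dusp6 at -0.25, Spry2 at -0.21 and Fgf4 at -0.14. RLE factors and the looser filter changed no call among the 8. The causes were not tested.

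Leaving out 1 sample gave log2 fold changes of 0.23 to 0.27 for Fgfr1, -0.35 to -0.24 for Spry4 and -0.10 to 0.04 for Etv4, whose sign turned (0.037) without ICF replicate 3, and 0 to 1 of the 8 genes were then called in each direction. In the same fits 0 to 1 other ligands were higher and 0 lower, 1 to 2 receptors or carriers were higher and 0 to 4 lower, 0 cascade genes were higher and 0 to 3 lower, 0 to 1 other inhibitors were higher and 1 to 2 lower, and 0 to 2 targets were higher and 2 to 3 lower.

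With edgeR and the replicate block the higher and lower counts were 3 and 1 ligands, 4 and 4 receptors or carriers, 3 and 4 cascade genes, 2 and 4 other inhibitors and 4 and 4 targets. With DESeq2 and the replicate block they were 1 higher ligand, 2 and 3 receptors or carriers and 3 and 4 cascade genes. That fit also gave 1 and 3 other inhibitors and 2 and 4 targets. DESeq2 alone gave 1 higher ligand, 2 and 3 receptors or carriers and 2 lower cascade genes. It also gave 1 and 2 other inhibitors and 2 and 3 targets. The looser filter gave the same except for 2 and 2 receptors or carriers. Division by 4 gave 2 lower cascade genes and 1 and 1 other inhibitors, with the other lists unchanged. Replicates 1 and 2 alone gave 2 and 2 ligands, 3 and 4 receptors or carriers and 2 and 4 cascade genes. They also gave 3 and 5 other inhibitors and 3 and 5 targets.

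Over all genes tested 580 were higher and 733 lower, against 877 and 1071 with DESeq2, 1354 and 1666 with DESeq2 and the replicate block, 2445 and 2561 with edgeR and the replicate block, and 2466 and 2627 with replicates 1 and 2 alone. Leaving out 1 sample gave 85 to 724 higher and 215 to 928 lower, with the fewest without Control replicate 2.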

Other observations

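The 3 ICF samples differed in Etv5 by an SD of 0.134% of their mean, below the counting error of 1.08% to 1.18% of a single sample. The SD in the Control was 1.77%.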
